A study of Caenorhabditis elegans with 2 samples.

Results

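The distal intergenic peaks of PQM-1 are those of the authors' optimal list whose summit, the base of highest enrichment, lay inside no protein-coding gene and outside every promoter window. Such a window covers the 1000 bp before and the 250 bp after an annotated 5' end of any transcript of a protein-coding gene. They numbered 1356 of 5560 optimal peaks (24.4%, exact 95% interval 23.3 to 25.5), and would be 15.2% with a window of 2000 bp upstream. A further 3174 optimal summits lay in promoter windows and 1030 lay in gene bodies outside them. The members were then sorted by the strands of both flanking protein-coding genes. A gap is divergent where both neighbours point away from it, tandem where they point the same way, and convergent where their 3' ends face it. The members were told from the other optimal peaks by position alone, and sequence took no part. The optimal list itself is a selection by signal, down to 23.8, so every member is a strong peak of the authors' pooled list.

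The peaks come from chromatin immunoprecipitation and sequencing of Caenorhabditis elegans at the L3 larval stage, in 1 group with 2 biological replicates. The worms were of strain OP201, with the unc-119(tm4063) mutation on chromosome III and the wgIs201 transgene, from which PQM-1 is made with an eGFP tag. Animals of mixed sex were used whole, so a peak cannot be assigned to a tissue, and the labels do not say how much of the tagged protein replaces the worm's own. There was no second condition. Library fragments of 150 to 350 bp were selected, per the labels. The deposited peak lists hold no reads, so depth is unknown, and intervals cover counting error only. The signal of a peak is the authors' score on a scale that is not stated, and it serves here to rank peaks within a list. No optimal peak lay within 20 kb of pqm-1 or of unc-119.

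PQM-1 is a zinc finger transcription factor that is active in the worm intestine. It is known from insulin signalling, where it and the forkhead factor DAF-16 occupy the nucleus in opposite states, and it has been linked to TGATAAG, the DAF-16-associated element. That element holds the core GATA, which the intestinal GATA factor ELT-2 also reads. Worm genes lie close together, and much of their known control sequence sits just before them, while enhancers can lie farther away in the gap between genes or within introns. Because many worm transcripts are trimmed by trans-splicing, an annotated 5' end can lie downstream of the place where transcription begins.

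The windows of 101 bp around some of the strongest distal summits show what the class looks like in sequence, 2 for each orientation. They are read from the RefSeq WBcel235 genome, which is the ce11 build of the lists, on the plus strand, in lower case. Capitals mark TGATAAG or its other strand CTTATCA.
Y37A1A.2 peak, divergent, chrIV:13919356-13919456: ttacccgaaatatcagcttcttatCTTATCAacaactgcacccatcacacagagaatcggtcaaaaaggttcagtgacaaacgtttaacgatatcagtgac
irld-18 peak, divergent, chrIV:14594412-14594512: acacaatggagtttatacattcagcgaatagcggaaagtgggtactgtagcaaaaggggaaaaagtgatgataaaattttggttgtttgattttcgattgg
laat-1 peak, tandem, chrII:240198-240298: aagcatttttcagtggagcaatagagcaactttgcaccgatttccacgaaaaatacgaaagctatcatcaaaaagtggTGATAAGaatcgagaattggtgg
R12C12.9 peak, tandem, chrII:6026803-6026903: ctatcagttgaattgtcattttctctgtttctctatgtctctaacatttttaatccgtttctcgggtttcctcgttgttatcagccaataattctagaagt
T23E1.1 peak, convergent, chrIV:3158329-3158429: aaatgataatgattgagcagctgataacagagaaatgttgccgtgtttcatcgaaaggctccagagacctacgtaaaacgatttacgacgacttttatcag
sdz-19 peak, convergent, chrX:12500958-12501058: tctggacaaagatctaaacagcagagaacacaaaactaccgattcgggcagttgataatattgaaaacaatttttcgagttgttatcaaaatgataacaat
The full element is in 2 of these 6 windows. Peaks nearest to the median signal of their orientation show the middle of the class, and none of the 3 holds the full element.
F13C5.3 peak, divergent, chrX:600813-600913: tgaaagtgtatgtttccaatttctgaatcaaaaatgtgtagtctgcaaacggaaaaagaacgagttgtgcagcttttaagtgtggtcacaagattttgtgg
F09C8.2 peak, tandem, chrX:16150367-16150467: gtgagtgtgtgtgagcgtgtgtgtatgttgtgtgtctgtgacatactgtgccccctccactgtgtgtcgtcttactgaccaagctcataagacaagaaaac
K06A4.10 peak, convergent, chrV:9489192-9489292: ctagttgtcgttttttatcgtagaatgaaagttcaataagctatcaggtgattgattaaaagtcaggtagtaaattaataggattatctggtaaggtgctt
The next pair, chosen after its values were seen, shows repeated copies of the element. The C08E8.3 window holds 2 and is the strongest member with 2, and the window in the gap between snt-1 and egl-27 is the single member with 3.
C08E8.3 peak, divergent, chrV:18346214-18346314: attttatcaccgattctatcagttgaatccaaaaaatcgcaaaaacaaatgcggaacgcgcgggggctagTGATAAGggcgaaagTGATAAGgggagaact
snt-1 and egl-27 peak, tandem, chrII:6821939-6822039: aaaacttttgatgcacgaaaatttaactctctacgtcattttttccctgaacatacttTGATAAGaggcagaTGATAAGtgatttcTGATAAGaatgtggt
The last window, also chosen after its values were seen, is the strongest with GAGAGAG and the E-box CACGTG and without TGATAAG. Its capitals mark those other elements.
bcat-1 peak, tandem, chrX:12872426-12872526: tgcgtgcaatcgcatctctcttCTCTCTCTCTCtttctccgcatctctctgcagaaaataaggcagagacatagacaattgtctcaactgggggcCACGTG

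The element TGATAAG lay within 50 bp of 329 distal summits (24.3%, exact 95% interval 22.002 to 26.6). In windows of the same size 500 bp toward lower coordinates it was found at 1.84% of members, and toward higher coordinates at 1.70%. Of 240089 adjoining windows that tile the distal sequence of the genome, 1.59% held it. The difference between summits and lower flanks was 22.4 percentage points (95% interval 20.02 to 24.8; exact sign test, two-sided, adjusted p = 1.35e-70 over 18 tests), and 11.5 points with windows of 25 bp each side. The adjusted p-values of the main setting are by the Benjamini-Hochberg method over those 18 tests. Each alternative was adjusted in the same way over its own tests, which were fewer where a single replicate's peaks were used. Promoter summits held the element at 22.3%. The difference between distal and promoter summits, 1.92 points, had an interval of -0.78 to 4.63 and did not pass the threshold (Fisher's exact test, two-sided, adjusted p = 0.269). By the same exact test it passed when the promoter window was cut to 500 bp upstream (2.998 points, adjusted p = 0.0381) and when genes of every biotype counted (4.35 points, adjusted p = 0.0146). It turned to -0.93 points within the strongest 1000 peaks, -0.47 with replicate 2 alone and -0.19 with windows of 25 bp each side.

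The element stood close to the summit. Of the members, 153 had its centre within 20 bp and 558 (41.2%) had a copy within 300 bp. The density fell from 6.34 copies per 100 members in the 20-bp bin centred 30 bp before the summit to below 1 copy per 100 members beyond 150 bp. Promoter summits followed the same outline, with 5.36 copies per 100 in that bin. A single copy was present at 296 members, 2 copies at 32 and 3 at 1. In the 32 pairs the copies were spaced by a median of 25.5 bp, from 7 to 84 bp, with 23 pairs on the same strand and 9 on opposite strands. The median signal was 42.9 for members without the element, 51.1 for those with 1 copy and 43.0 for those with more.

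**Figure D1:**
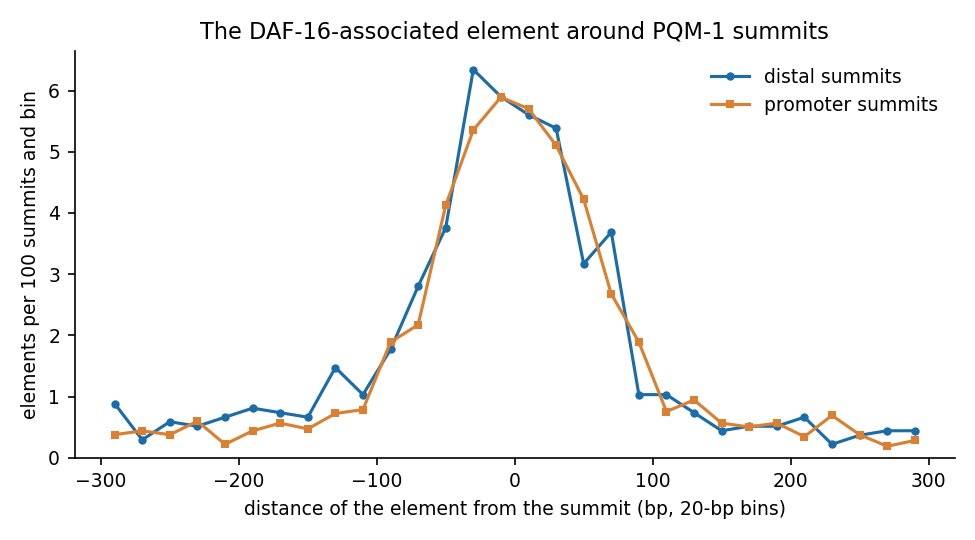
Copies of the DAF-16-associated element per 100 summits (vertical axis) in 20-bp bins of distance from the summit (horizontal axis, bp), for 1356 distal summits (blue circles) and 3174 promoter summits (orange squares). Both lines peak near the summit, at 6.34 copies per 100 distal summits in the highest bin, and level off beyond about 100 bp.

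The base before GATAAG differed in use among the members. AGATAAG was at 76 distal summits (5.60%) and 1.47% of lower flanks (exact sign test, adjusted p = 3.29e-08), a call that was lost within the strongest 1000 peaks (2.67 points, exact sign test, adjusted p = 0.378). CGATAAG was at 56 (4.13%), against 0.495% of the tiling windows. GGATAAG was at 3 (0.221%, exact 95% interval 0.046 to 0.645), against 0.557% of the tiling windows. GATAAG in any of these contexts was at 32.2% of summits and 3.51% of the tiling windows. These heptamers share GATAAG and differ in the base before it, so a site counts under 1 of them. A window with more than 1 site can count under several. The shorter TGATAA, searched after the values were seen, was at 45.1% of distal summits, 9.14% of the tiling windows and 40.3% of promoter summits. Of the 1027 members without TGATAAG, 283 (27.6%) held TGATAA. The other-strand forms of this hexamer are visible in the windows of R12C12.9 and sdz-19 printed above.

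Both GAGAGAG and CACGTG were also more frequent at the summits than beside them. GAGAGAG, a repeat read by GAGA-type factors in flies, was at 141 members (10.4%) and at 1.84% of lower flanks (exact sign test, adjusted p = 2.43e-20). CACGTG, the E-box read by helix-loop-helix factors such as HLH-30, was at 73 members (5.38%) and at 2.06% of lower flanks (exact sign test, adjusted p = 2.48e-05). GTAAACA, the forkhead site of DAF-16, was at 35 members (2.58%) and at 1.33% of lower flanks, a difference of 1.25 points that did not pass after adjustment (exact sign test, adjusted p = 0.0608). It passed under 7 of 14 alternatives, with differences from 1.11 to 3.02 points and adjusted p from 0.000276 to 0.0484, among them either replicate's peaks alone. Against promoter summits (3.59%) the share of GTAAACA differed by -1.01 points, which did not pass (Fisher's exact test, adjusted p = 0.169), and with the strongest member of each gap alone the difference was -1.64 points and passed (Fisher's exact test, adjusted p = 0.0186). Searched on both strands, GAGAGAG can overlap itself in a longer repeat, as at bcat-1, which encodes a branched-chain aminotransferase. GAGAGAG was more frequent at distal than at promoter summits (10.4% against 8.003%), a difference of 2.40 points (95% interval 0.52 to 4.27; Fisher's exact test, adjusted p = 0.0249). That call was lost under 7 of 13 alternatives, among them replicate 2's peaks alone (1.82 points, Fisher's exact test, adjusted p = 0.0637). Any of the 5 elements was present at 585 members (43.1%), which left 771 (56.9%) with none. The median GC content of the summit windows was 38.6%, above the 33.7% of the tiling windows and the 32.7% of the lower flanks. The part of base composition in the motif differences was not tested.

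**Figure D2:**
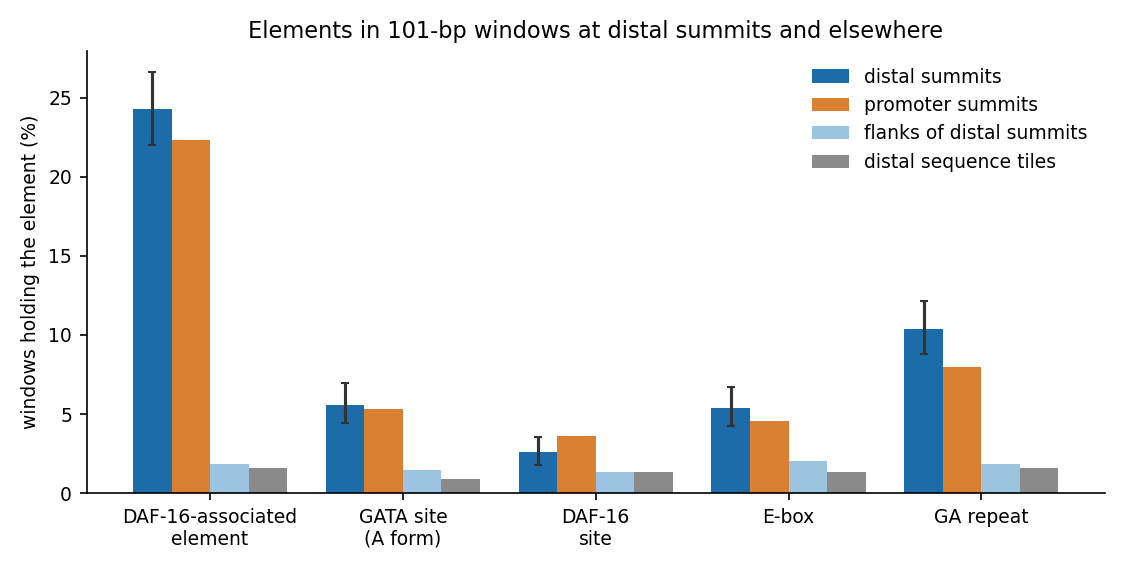
Share of 101-bp windows (vertical axis, percent) that hold each of 5 elements at distal summits (blue, with exact 95% intervals), promoter summits (orange), the lower flanks of distal summits (light blue) and the windows tiling distal sequence (grey). The DAF-16-associated element is at 24.3% of distal and 22.3% of promoter summits and at 1.84% of flanks.

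Strength and the element went together inside the class. Among the 339 strongest members 30.4% held TGATAAG, against 19.5% of the 339 weakest, a difference of 10.9 points (95% interval 4.45 to 17.4; Fisher's exact test, adjusted p = 0.00406). The call was lost with a promoter window of 2000 bp (7.11 points), with motif windows of 25 bp (5.60) and within the strongest 50% (9.77) or the strongest 1000 (4.62) of the optimal peaks. With replicate 2 alone the difference was 23.96 points. CACGTG was at 8.26% of the strongest and 3.24% of the weakest, and GAGAGAG at 8.85% and 12.1%, with no test made of either. Below the optimal list the share went on falling. In the authors' pooled relaxed list of 30000 peaks, the element was at 33.6% of distal summits ranked 1 to 1000, 20.3% of those ranked 2781 to 5560, 11.3% of those ranked 5561 to 10000 and 1.90% of those ranked 20001 to 30000. The last value is near the 1.59% of the tiling windows. Distal peaks made up 26.2% of the first rank group and 21% of the last, while the promoter share went from 56.5% to 28.2%.

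Distal and promoter peaks had signals in much the same range. The median signal was 44.1 for distal peaks, 43.8 for promoter peaks and 42.2 for those in gene bodies. Of the distal peaks 26.4% were among the strongest 1390 of the optimal list, against 24.7% of promoter peaks, a difference of 1.70 points (95% interval -1.08 to 4.49; Fisher's exact test, adjusted p = 0.315). Signals of members ran from 23.8, where the list ends, to 471.6.

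Both replicates marked most members. The optimal list was kept for agreement between these same replicates and holds their strongest pooled peaks, so such overlap is partly built in. A peak of replicate 1's relaxed list overlapped 1355 of the 1356, and one of replicate 2's overlapped 1274, by at least 1 bp. When each replicate was held to its own strongest 5560 peaks, 92.5% of members were overlapped in replicate 1, 73.5% in replicate 2 and 67.3% in both. The last share was 64.8% for promoter peaks, a difference of 2.52 points (95% interval -0.48 to 5.52; Fisher's exact test, adjusted p = 0.195). It passed with a promoter window of 500 bp (3.59 points) and with genes of every biotype (4.35 points). Among the strongest 339 members 97.3% were in both, and among the weakest 339 members 20.6%. This contrast is also partly built in, since strength here is the pooled signal of both replicates. The rank correlation of the replicate signals across members was 0.535 (Spearman, across peaks that share both libraries). It was 0.351 within the strongest 339 members and -0.407 within the weakest 339. These groups are cut by pooled signal, and what that does to the correlation was not tested. Summits lay a median of 6 bp from that of replicate 1 and 26 bp from that of replicate 2. When the rule was applied to each replicate's own strongest 5560 peaks, 1362 (24.5%) and 1352 (24.3%) were distal. In these lists TGATAAG was at 23.6% of distal summits in replicate 1 and 18.3% in replicate 2.

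**Figure D3:**
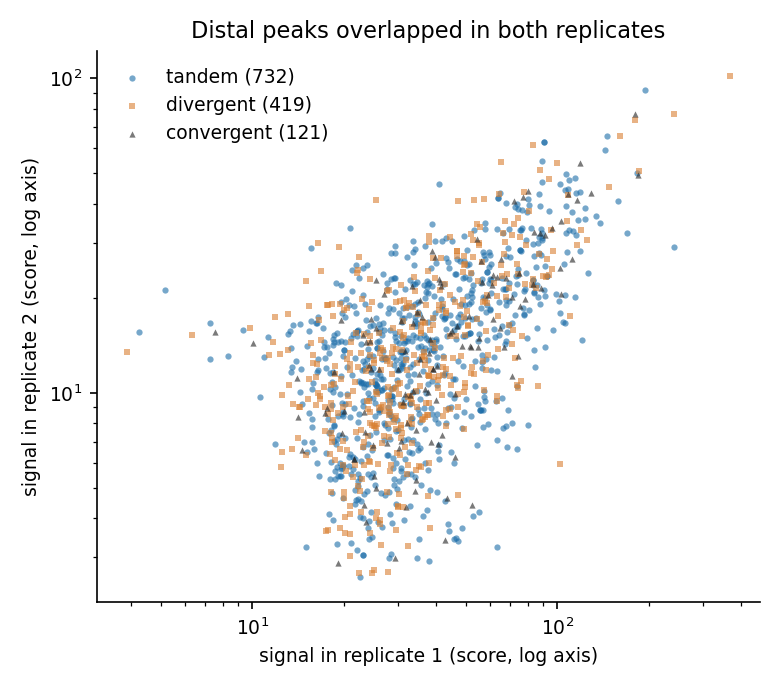
Signal of each distal peak in replicate 1 (horizontal axis) and replicate 2 (vertical axis), both the authors' scores on log axes, for the members overlapped in both relaxed lists, by orientation of the flanking genes. The cloud as a whole rises with a rank correlation of 0.535, against 0.351 within the strongest 339 members and -0.407 within the weakest 339. The strongest peak of both replicates is the divergent one at Y37A1A.2.

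By flanking genes, 776 members (57.2%, exact 95% interval 54.5 to 59.9) lay in tandem gaps, 450 (33.2%, 30.7 to 35.8) in divergent gaps and 129 (9.51%, 8.004 to 11.2) in convergent gaps. The single remaining member lay between the end of a chromosome and the protein-coding gene nearest to that end. Per Mb of distal sequence of each kind, divergent gaps held 60.1 members (exact Poisson 95% interval 54.7 to 65.9), tandem gaps 57.9 (53.9 to 62.1) and convergent gaps 31.2 (26.03 to 37.05). Convergent gaps hold 16.5% of all distal sequence. The median signal was 50.3 in convergent, 44.4 in tandem and 41.6 in divergent gaps, with no test made of these medians. TGATAAG was at 25.3% of divergent, 24.4% of tandem and 20.2% of convergent summits. None of the 3 differences passed (Fisher's exact tests, adjusted p from 0.315 to 0.731), and that between divergent and convergent gaps, 5.18 points, had an interval of -2.83 to 13.2.

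The members lay at a median of 2232 bp from the nearest 5' end of a protein-coding transcript, with the middle of the class between 1424 and 3650 bp and a range from 286 to 16966 bp. For 995 (73.4%) the nearest 5' end lay ahead, so that the peak was upstream of it, and for 361 it lay behind. Per Mb of distal sequence at the same distance, the density fell from 77.7 members at 1000 to 2000 bp upstream (95% interval 70.8 to 85.1) to 56.6 at 2000 to 5000 bp, 41.9 at 5000 to 10000 bp and 26.9 beyond (14.3 to 46.0). On the downstream side it fell from 57.0 at 250 to 1000 bp to 21.7 beyond 10000 bp. In all, 177 members were more than 5000 bp from any 5' end and 23 more than 10000 bp. TGATAAG was at 23.3% of the nearest upstream group, 24.2% of those 2000 to 5000 bp upstream, 27.9% of those at 5000 to 10000 bp and 15.4% of those beyond, where there were 13 members. Peaks stood on both sides of the 1000-bp boundary, with 125 members within 200 bp outside it and 190 promoter summits within 200 bp inside it. The promoter summits may lie in gene bodies, which members may not, and neither count is per Mb of sequence.

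The chromosomes differed in density. Chromosome III held 63.7 members per Mb of distal sequence, X held 59.9 and IV held the fewest, 41.5 (95% interval 36.0 to 47.5). X gave 343 members, 28.8% of its optimal peaks, and the autosomes together held 52.3 members per Mb. TGATAAG was at 19.5% of the distal summits on X and at 29.96% of those on V, the lowest and highest of the 6 chromosomes, with no test made.

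The distal sequence also holds genes that make no protein. Outside piRNA genes, 373 members (27.5%, exact 95% interval 25.1 to 29.97) lay in such a gene or in its start window, close to the 28.003% of distal sequence that these take up. By kind, the largest group was genes annotated as ncRNA without a closer class, with 251 members (18.5%, interval 16.5 to 20.7) and 11.3% of distal sequence. Genes of lincRNA, long RNAs between protein-coding genes, took 32 (2.36%, 1.62 to 3.32) and 1.15%. Genes of tRNA took 48 members (3.54%, interval 2.62 to 4.67) and 0.865% of distal sequence, and those of snoRNA, which guide RNA modification, took 24 (1.77%, 1.14 to 2.62) and 0.367%. Genes of miRNA took 18 (1.33%, 0.79 to 2.09) and 0.508%, among them the gene of cel-mir-60, whose peak lay in the gap between sma-6 and set-4 (II, 6328775 to 6328988, signal 132.3, rank 192). Pseudogenes took 56 (4.13%, 3.13 to 5.33) and 14.9% of distal sequence. TGATAAG was at 15.9% of the members at ncRNA genes, 18.8% of those at lincRNA genes, 8.33% of the members at tRNA genes, 4.17% of those at snoRNA genes and 37.5% of those at pseudogenes. A peak near sls-2.2, a gene of the spliced leader RNA that trans-splicing adds to messages, had a signal of 116.7 (II, 5543486 to 5543588, rank 296). The control library was not used here. Genes of piRNA, small RNAs that silence foreign sequence in the germline, took 74 members (5.46%, interval 4.31 to 6.80) and 8.79% of distal sequence. Of these 74 members, 65 were on chromosome IV. Soft-masked bases, which mark repeats, held 14.9% of distal summits and 15.7% of promoter summits (Fisher's exact test, adjusted p = 0.596), against 40.2% of distal sequence. The difference between distal and promoter summits turned from -0.79 to 4.73 points within the strongest 1000 peaks, without passing.

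Most of the strongest members were near the top of both replicates, whose pooled signal sets the ranking. The peak at -6377 bp from Y37A1A.2 (IV, 13919244 to 13919554) had a signal of 366.9 in replicate 1 and 102.0 in replicate 2 and ranked 1 in both and in the optimal list. It held TGATAAG and, overlapping it, AGATAAG, and its summit lay in the body or start window of a piRNA gene. The peak between irld-18, of a family of receptor-like proteins, and dmd-6, of a DM domain gene family (IV, 14594293 to 14594713), had a signal of 240.2 in replicate 1 and 77.0 in replicate 2 and ranked 4 of all. It was 13423 bp from the 5' end of irld-18 and 22141 bp from dmd-6, and held none of the 5 elements. Upstream of laat-1, whose product carries basic amino acids out of lysosomes, the peak at -2427 bp (II, 240121 to 240374) had 193.1 in replicate 1 and 92.2 in replicate 2. These 3 peaks were within the first 10 ranks of both replicate lists. The peak at -1874 bp from R12C12.9 (II, 6026700 to 6026997) was less even, with 240.9 in replicate 1, rank 3, and 29.1 in replicate 2, rank 452.

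The peak next to an enzyme gene and a pair next to nuclear hormone receptor genes were also among the 15 strongest. Upstream of xdh-1, which encodes xanthine dehydrogenase of purine breakdown, the peak at -1483 bp (IV, 14414251 to 14414503) had a signal of 182.8 in replicate 1 and 50.1 in replicate 2, and held GAGAGAG beside both TGATAAG and the form with A in first place. The peak in the divergent gap between nhr-31 and nhr-258, both nuclear hormone receptor genes (IV, 8032190 to 8032468), had 160.2 and 65.4. It held TGATAAG and lay 2811 bp from nhr-31 and 12614 bp from nhr-258. A tandem peak 5747 bp upstream of nhr-28, a further receptor gene (X, 16349036 to 16349359), had 145.0 and 65.6 and held none of the 5 elements. The C08E8.3 peak printed above with 2 copies (V, 18346126 to 18346380) had 185.7 and 50.9. The other genes flanking the 15 strongest were Y37A1A.4, scc-2, frpr-16, Y67D8B.1, C08E8.10, F55B11.6, ZC190.4, taf-3, F29F11.20, C05A2.4, D1054.18, secs-1, T19H5.4 and gcy-3.

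Convergent peaks face the 3' ends of both neighbours. The strongest, between T23E1.1 and Y67D8B.1 (IV, 3158247 to 3158508), had a signal of 180.0 in replicate 1 and 77.3 in replicate 2 and ranked 10 of all. Next came the peak between the 3' ends of lips-1, a lipase gene, and sdz-19 (X, 12500860 to 12501180), with 184.2 and 49.3. A pair of peaks lay in the pud cluster on V, genes named for proteins that are more abundant in daf-2 insulin receptor mutants. The one between pud-4 and pud-2.2 (V, 2327206 to 2327421) had 118.7 and 53.97, and the one between pud-2.2 and pud-3 (V, 2324365 to 2324585) had 128.4 and 43.1, and both held TGATAAG. Ensembl gives the name pud-2.2 to separate genes, and the one beside pud-4 is called pud-2.1 in RefSeq. The peak 193 bp past the 3' end of sma-6, the type I receptor of a BMP-like pathway (II, 6327434 to 6327678), had 116.2 and 41.2 and also held it. The element was thus in 3 of the 5 strongest convergent windows and in neither of the first pair.

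Members gathered in some gaps. The 1356 peaks lay in 973 of 8976 gaps with distal sequence. In 725 gaps there was 1 member, in 248 there were 2 or more, which held 631 members, and in 35 there were 4 or more, which held 162. The nearest other optimal summit was at a median of 2046 bp, and for 288 members (21.2%) it was within 1 kb. Such neighbours are counted as independent in the tests over peaks. Where 2 members overlapped the same replicate peak, they carry the same replicate value.

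The fullest gaps held 8 members each. Between mxl-3 and C49F8.15 on X (13350805 to 13361200), 8 peaks stood in 10396 bp upstream of mxl-3, a Max-like helix-loop-helix gene that represses lysosomal lipases in fed worms. Their signals ran from 33.2 to 153.2, with the strongest 10058 bp from mxl-3 (118.8 in replicate 1 and 43.4 in replicate 2), and TGATAAG was in none of their windows. Between got-2.2, a transaminase gene, and W05H9.4 on X (6242710 to 6263647) the 8 peaks had signals from 27.8 to 99.0, and 1 held TGATAAG. Upstream of egl-27, which encodes a GATA-type zinc finger protein of the MTA family, the gap to the synaptotagmin gene snt-1 held 6 peaks from 24.5 to 121.0. The strongest of them, 13019 bp from egl-27, carries the 3 copies printed above, and none of the other 5 held one. The asp-13 gap on V, beside an aspartyl protease gene, held 6 peaks from 51.0 to 250.5, of which 3 held the element, and all 6 were among the strongest 5560 peaks of both replicates. In the irld-18 gap the 6 peaks ran from 28.4 to 313.7 with none holding it.

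Taken by genes, 8028 of 19973 protein-coding genes have distal sequence in the gap that their 5' end faces, and 1165 of these (14.5%) had a distal summit there. An optimal summit in the gene's own promoter window was found for 1215 of the 8028 (15.1%). The question was whether distal and promoter peaks fall at the same genes. Of the 1165 genes with a distal summit upstream, 338 (29.0%) also had a promoter summit, and of the 6863 without one, 877 (12.8%). The difference was 16.23 points (95% interval 13.5 to 18.96; Fisher's exact test over genes, adjusted p = 4.22e-39), 9.96 points with a promoter window of 500 bp and 7.84 points within the strongest 1000 peaks, both past the threshold. Genes with a distal summit had longer upstream gaps, with a median of 5632 bp against 3199 bp. In each of 4 equal groups of gap length the same direction was seen, from 36.5% against 14.8% in the shortest gaps to 23.6% against 9.89% in the longest. The other 827 genes with a distal summit had no promoter summit. A divergent gap counts for both its genes, so the genes are not fully independent.

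Gene lists were read against that 14.5%, by counts alone, since a list's members can have longer gaps than other genes and no test was made of any list. The intestine is the tissue where PQM-1 is best known. Of 12 intestine marker genes with distal upstream sequence, 6 had a distal summit (exact 95% interval of the share 21.1% to 78.9%). Among them were ifb-2, an intestinal intermediate filament gene (1629 bp upstream, 83.2 in replicate 1 and 61.3 in replicate 2), asp-1, an aspartyl protease gene (109.9 and 17.5), and nhx-2, a sodium-proton exchanger gene (57.8 and 34.6). Of the markers of other tissues, 2 of 12 for neurons, 1 of 14 for muscle, 1 of 6 for germline, 0 of 7 for hypodermis and 0 of 9 for pharynx had a distal summit. The neuron genes were unc-64 and egl-3, the muscle gene was unc-60 and the germline gene was cpg-2. With 0 of 9, the exact interval for pharynx reaches 33.6%, and the shortest lists say little. Promoter summits were found for 9 of the 12 intestine markers (75%), against 15.1% of all genes with distal upstream sequence. Of the other tissues, 1 of the neuron, 3 of the muscle and 2 of the pharynx markers had a promoter summit. None of the germline or hypodermis markers had one.

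Nuclear hormone receptor, stress factor and fatty acid genes were among the lists above the 14.5%. Nuclear hormone receptors are ligand-binding regulators of metabolism that this worm has in great number. Of 147 of their genes, 51 (34.7%, interval 27.04 to 43.0) had a distal summit, 84 summits in all. No promoter summit was found for 32 of the 51, against 827 of all 1165 genes with a distal summit. Of the 147, 34 (23.1%) had a promoter summit, against 15.1% of all genes with distal upstream sequence. The list's median upstream gap was 3491 bp. Of 11 stress transcription factor genes 5 (45.5%) had a promoter summit, against that 15.1%. Those with a distal summit numbered 5 as well. They included hif-1, the hypoxia factor gene, whose 3 summits reached 72.6 in replicate 1 and 12.9 in replicate 2, sbp-1, the lipid regulator gene (7244 bp upstream, 20.96 and 12.4), and hsf-1, the heat shock factor gene (28.6 and 9.79). Of 14 fatty acid genes 6 (42.9%) had a promoter summit, against that 15.1%, and 6 had a distal summit. The peak 4958 bp upstream of fat-2, a desaturase gene, had 113.8 in replicate 1 and 48.2 in replicate 2, and that 3068 bp upstream of fat-5, another desaturase gene, 115.4 and 43.2. The hacd-1 peak, of a gene for a hydroxyacyl-CoA dehydrogenase, had 109.3 and 47.5. Neither fat-2 nor fat-5 had a promoter summit.

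Smaller lists give names rather than shares. Of 4 uric acid and purine genes 3 had a distal summit, xdh-1, adah-1 and pacs-1. Of 10 GATA factor and gut regulator genes 3 had one, egl-27 with its 6 summits, elt-2, and end-1, the early gut fate gene (29.7 in replicate 1 and 7.70 in replicate 2). The elt-2 summits were 2, and the stronger, 2015 bp upstream (X, 10479159 to 10479243), is the single member that no peak of replicate 1 overlapped, with 30.3 in replicate 2. Of 35 solute and amino acid transporter genes 11 had one (31.4%, interval 16.9 to 49.3), led by hmit-1.3, ttm-2 and swt-1. A promoter summit was found for 9 of the 35 (25.7%), against 15.1% of all genes with distal upstream sequence. Of 25 ABC transporter genes 12 (48%) had a promoter summit. A distal summit was found for 5 of the 25, led by abt-4, pgp-1 and pgp-11. Of 11 lysosome and protease genes 2 had one, laat-1 and asp-1. A promoter summit was found for 9 of the 11 (81.8%), against 15.1% of all genes with distal upstream sequence. The helix-loop-helix list had 3 of 21 with a distal summit (14.3%), mxl-3, mdl-1 and mml-1. These are partners or relatives in the Max-like network and held 13 summits together. The homeobox list had 7 of 56 with a distal summit (12.5%). Among them were unc-39, ceh-36 and mec-3 (93.8 and 48.03), which directs touch neuron fate and shares its peak with ugt-43. None of the 7 had a promoter summit, and of all 56 genes 4 had one (7.14%, against that 15.1%).

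The lists that follow were under the 14.5%, as were the helix-loop-helix and homeobox lists. Detoxification genes had 3 of 25 for cytochrome P450 genes (cyp-14A5, cyp-23A1 and cyp-33C3) and 4 of 33 for conjugating enzymes (led by ugt-43, gst-35 and ugt-20). Of those 33, 14 (42.4%) had a promoter summit, against 15.1% of all genes with distal upstream sequence. Cuticle collagens had 7 of 59, led by col-105, col-166 and col-185. Neuropeptide and insulin genes had 7 of 101 (6.93%, interval 2.83 to 13.8), led by nlp-36, nlp-67 and nlp-62. Of 72 C-type lectin genes, many of them immune effectors, 12 (16.7%) had a promoter summit. A distal summit was found for 2 of the 72, clec-91 and clec-1. Chemoreceptor genes, the largest list, had 15 of 552 (2.72%, interval 1.53 to 4.44), with srb-19, srw-54 and str-230 the strongest. Of 11 genes listed as induced by DAF-16, fat-5 had a distal summit, and of 7 listed as lower in daf-2 mutants dod-23 had one. The vitellogenin list had 0 of 3. The ribosomal protein list, which stood above that share, had 1 of 6, rps-28.

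**Figure D4:**
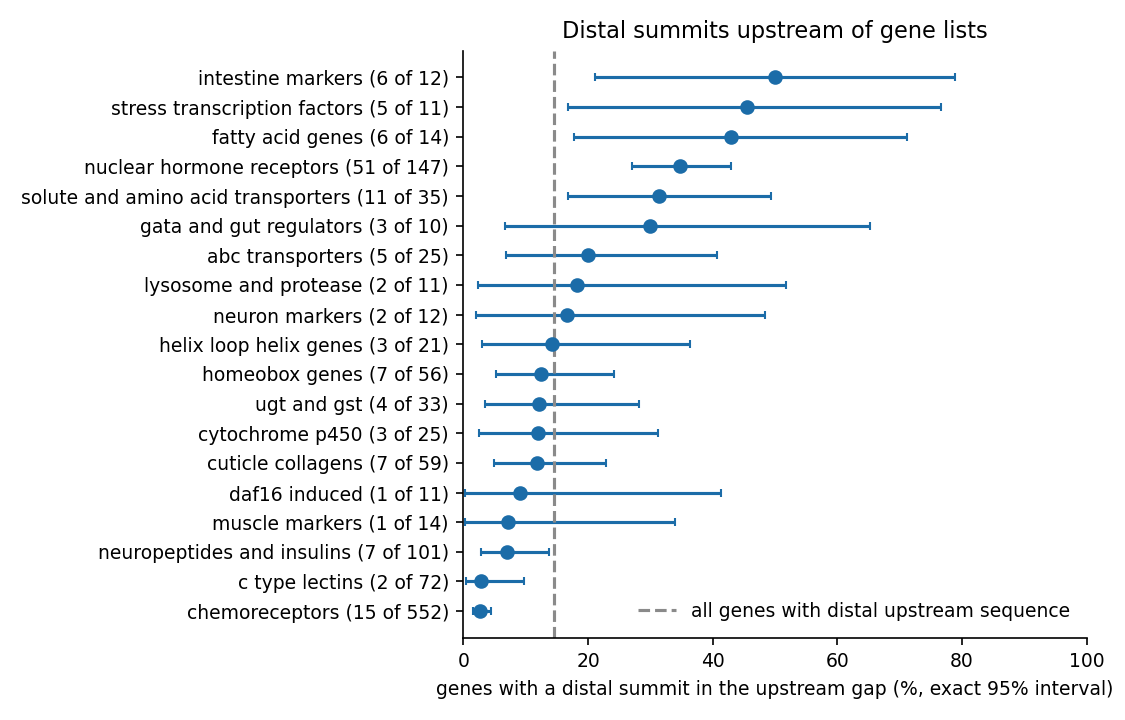
Share of genes with a distal summit in the upstream gap (horizontal axis, percent, with exact 95% intervals) for each list with at least 10 genes that have distal upstream sequence; the counts stand beside the names, and the dashed line is the 14.5% of all such genes. Nuclear hormone receptor genes lie at 34.7% and chemoreceptor genes at 2.72%, the former well above the line and the latter well below it.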

How the data were processed

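Peak lists from 2 biological replicates of 1 group were used, on ce11. Per the deposited notes, relaxed lists were called by the authors for each replicate and for both together against a control, and the optimal list was kept by the irreproducible discovery rate, a measure of how far ranked replicates match. The sources used here name no aligner, caller, threshold or depth (not given). Signal is a score deposited by the authors, on a scale that is not stated. The lists hold 5560 optimal, 30000 pooled, 26022 replicate 1 and 30000 replicate 2 peaks, and the optimal list is the strongest part of the pooled one, down to a signal of 23.8. The ce10 lists, signal tracks and control were not used here.

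Genes are from Ensembl 115 and bases from RefSeq WBcel235, the same assembly. Motifs were searched on both strands within 50 bp of summits; flanks lie 500 bp away and may leave distal sequence. Tests were exact (sign test, Fisher's exact test, two-sided), at 0.05 after Benjamini-Hochberg adjustment over 18 tests. Each alternative was adjusted over its own tests, which were fewer with a single replicate's peaks. The tests treat neighbouring peaks as independent. Intervals of shares are Clopper-Pearson, of densities exact Poisson, both 95%, and of differences a normal approximation. Python 3.11.15, numpy 2.4.6, scipy 1.17.1 and matplotlib 3.10.9 were used, and the code was tested on simulated data.

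Named genes flank the 15 strongest members, the 5 strongest of each orientation that both replicates overlap, and the 5 fullest gaps, or are up to 3 genes per list with the strongest distal summit. The members, the 26 lists and the tests were chosen with earlier results of these data known. The windows shown come from chromosomes II, IV, V and X. Of the list symbols, 6 were not found in the annotation. Alternatives changed the promoter window, gene models, list length, motif window, flank, overlap, summit and replicate.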

Additional observations from a re-analysis of the deposited data

How the results depend on the processing

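Of 254 alternative values, 200 kept their direction and their side of the threshold or stayed within the main interval. Some of the 200 could not change. Leaving out the transgene loci removed no peak, and using the 5' end of each gene alone left the same 1356 members. Counts of alternatives given for single results include such repeats where they apply. The excess of TGATAAG at distal summits over flanks passed under all 14 alternatives (11.5 to 31.7 points), and so did the excess of promoter summits at genes with a distal summit under all 9 (7.84 to 21.3 points). The distal share was 32.3% with a promoter window of 500 bp, 15.2% with 2000 bp, 16.7% with genes of every biotype and 26.2% among the strongest 1000 peaks. The divergent share was 30.6% with the 2000-bp window, 29.99% in the strongest 50% of peaks and 28.2% in the strongest 1000; the tandem share was 60.8% with every biotype. The convergent share was 7.24% with the 500-bp window, 14.1% with the 2000-bp window and 13.4% in the strongest 1000. The non-coding share was 30.1% with the 2000-bp window, 25.1% in the strongest 50% and 21.4% in the strongest 1000; with every biotype it is 0 by construction and was not run.

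The distal minus promoter difference in TGATAAG was 2.998 points with the 500-bp window, 4.35 with every biotype, -0.93 in the strongest 1000, -0.19 with a 25-bp motif window, and -0.47 to 1.64 leaving out each replicate in turn. For AGATAAG it was -0.85 in the strongest 1000 and -0.43 to 0.073 leaving out each replicate, and for GTAAACA, -1.01 as reported, 0.10 with a 100-bp motif window and -1.64, past the threshold, with the strongest member of each gap. The strongest minus weakest members' difference in TGATAAG no longer passed with the 2000-bp window (7.11 points), the strongest 50% (9.77) or 1000 peaks (4.62), which leave fewer peaks, or the 25-bp motif window (5.60), and was 10 to 23.96 leaving out each replicate. The divergent minus tandem difference was -0.16 with the 500-bp window and -1.04 to 2.55 leaving out each replicate. The difference in the share among the strongest 1390 peaks was 7.16 points, past the threshold, with the strongest peak of each gap, which favours strong peaks by construction, and -0.34 to 2.09 leaving out each replicate. Replicate support differed by 3.59 points with the 500-bp window and 4.35 with every biotype, both past the threshold, and by -0.26 in the strongest 1000. The soft-masked difference was 1.52 points with the 2000-bp window, 0.24 with every biotype, 1.93 in the strongest 50%, 4.73 in the strongest 1000, and -2.32 to 1.12 leaving out each replicate. Where no cause is given, the cause was not tested. No paired analysis was possible because there is 1 group. Depth is unknown, so what it limits cannot be said.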
